A study of Mus musculus with 18 samples.

Results

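The hearts of *Lmna*-/- mice were compared at 2 weeks and at 1 month of age, with 3 hearts at each age, 6 of the 18 hearts of the series. The *Lmna*-/- mice were C57BL/6 animals homozygous for the targeted allele *Lmna* tm1Stw, and no treatment is named for any group. The 3 WT littermate hearts of the same strain at 2 weeks and the 3 at 1 month served as the reference for what growth between these ages does in hearts with lamin A/C. Each library holds the RNA of 1 entire heart after removal of ribosomal RNA, so atria, ventricles, vessels and blood cells are measured together, and the loss of lamin A/C extends to every cell type of the mouse. Of 47069 genes counted, 12890 had more than 5 counts in each of the 6 *Lmna*-/- hearts and were tested. Genes of the mitochondrial genome and processed pseudogenes were left out beforehand.

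Lamins A and C line the inner face of the nuclear envelope, bind chromatin and link the nucleus to the cytoskeleton. Mice without them grow poorly and develop muscular dystrophy and dilated cardiomyopathy within weeks of birth. Over the same weeks the normal mouse heart completes its maturation. Its muscle cells leave the cell cycle, fetal isoforms of contractile proteins are replaced, and fatty acids become the main fuel for the respiratory chain. A failing heart often turns the other way, with fetal and stress genes switched on and oxidative genes lowered.

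The 2 ages were deposited as separate count tables, so age and table cannot be told apart in the *Lmna*-/- hearts alone, whereas a shift shared by both genotypes of a table cancels in the difference between the genotypes. The link of counts to GC content was not shared at 2 weeks. Its rank correlation, on counts per base of exon, was 0.078 to 0.091 in *Lmna*-/- and 0.011 to 0.043 in WT hearts. At 1 month it was 0.018 to 0.038 and 0 to 0.038. *Lmna*-/- libraries had 22614225 to 27014830 counts at 2 weeks and 10673094 to 18792377 at 1 month, of which 7715505 to 8088067 and 4862883 to 8919367 lay on the genes used here. A count of 3, taken as the floor, was 0.336 to 0.617 CPM (read counts normalised to the total on these genes, after TMM scaling). The mitochondrial genome took 65.8% to 70.0% of the counts at 2 weeks and 52.5% to 55.2% at 1 month, and the corresponding WT ranges were 68.2% to 70.4% and 57.6% to 59.5%. A few hearts stood apart. The lung and airway markers summed to 57.6 CPM in *Lmna*-/- heart 1 of 1 month and to 26.8 CPM in WT heart 3 of 1 month, against at most 2.01 CPM in the other hearts. Thymus markers summed to 365 CPM in WT heart 2 of 2 weeks and to at most 18.1 CPM elsewhere. Atrial markers summed to 154, 1761 and 2084 CPM in the 3 *Lmna*-/- hearts of 2 weeks, so heart 1 held few atrial reads, and to 2646, 1733 and 1740.0 CPM in those of 1 month. In WT hearts these sums were 349.5, 72.6 and 844 CPM at 2 weeks and 1445, 2016 and 1107 CPM at 1 month, all 3 hearts of 2 weeks being below those of 1 month and heart 2 the lowest of all. *Xist* reads, which mark females, lay in 1 of the 3 *Lmna*-/- hearts of 2 weeks and in 0 of the 3 of 1 month. They lay in 1 of the 3 WT hearts of 2 weeks (heart 2) and in 2 of the 3 of 1 month (hearts 1 and 3). WT heart 2 of 2 weeks and WT heart 3 of 1 month are thus also hearts with thymus or lung markers. The part of sex in the differences between the genotypes was not tested beyond leaving these hearts out. Nothing states that the hearts came from separate litters, and p-values measure the spread between these hearts.

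*Lmna* itself (ENSMUSG00000028063, chromosome 3, 88480147 to 88509956, minus strand) was at 61.2, 41.7 and 41.5 CPM at 2 weeks and 33.0, 29.6 and 29.1 CPM at 1 month in the *Lmna*-/- hearts. The WT hearts were at 145, 118 and 118 CPM at 2 weeks and 95.4, 104 and 104 CPM at 1 month, above every *Lmna*-/- heart at both ages. Counts per gene do not show which exons the remaining reads cover. They fell with age in the *Lmna*-/- hearts, with a log2 fold change of 1 month over 2 weeks of −0.65 ± 0.15 (SE, edgeR adjusted p = 0.0053). A log2 fold change is given throughout as 1 month over 2 weeks with its standard error, and a gene counts as changed where edgeR's quasi-likelihood test gave a Benjamini-Hochberg adjusted p under 0.05. Mean values are given ± the SD over 3 hearts.

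Between 2 weeks and 1 month the *Lmna*-/- hearts gained *Myh7* and a few other ventricular stress transcripts and lost transcripts of the respiratory chain and of fatty acid oxidation. Over all genes tested 2090 rose (16.2%) and 2289 fell (17.8%), and 862 of them moved by more than 2-fold. Of 80 nuclear-encoded subunits of oxidative phosphorylation 58 fell, as did 22 of 32 genes of fatty acid oxidation, 30 of 47 matrix genes and 10 of 10 endothelial markers. Rises outnumbered falls among fetal and stress-induced cardiac genes (14 of 29), clock genes (11 of 21), macrophage markers (6 of 10) and interferon-stimulated genes (13 of 35). The same held in WT hearts for each of these lists. In whole-heart RNA, fewer cells of a type and less RNA per cell cannot be told apart.

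The 3 hearts of 1 month lay all above the 3 of 2 weeks for 3079 genes (23.9%) and all below them for 3057 genes (23.7%). In the WT hearts 2547 of 12481 genes rose (20.4%) and 2303 fell (18.5%). Much of the change was shared, since among 12287 genes tested in both genotypes 1144 rose and 1165 fell in both with no call for a difference between them. The change itself differed between the genotypes for 889 genes, with 333 changing in a more positive direction in *Lmna*-/- hearts (2.71%) and 556 in a more negative one (4.53%). Of those 556 genes, 220 passed the threshold upward in WT hearts alone, 180 passed it downward in *Lmna*-/- hearts alone and 57 rose in WT and fell in *Lmna*-/- hearts. Scaled by library size in place of TMM the split was 422 against 397. With the GC trend of each library removed it was 277 against 511, and 655 of the 889 calls were kept. Calls for a difference rested on few hearts. Without the 3 hearts that held thymus or lung markers 59 and 95 genes were called, and without the 4 hearts with *Xist* reads, which left 1 group with a single heart, 3 and 17. Leaving out WT heart 2 of 2 weeks alone gave 127 and 236, and the calls within the *Lmna*-/- hearts were steadier, with 1530 rises and 1747 falls without the heart with lung markers and the heart with few atrial reads. A difference between the genotypes is given as the *Lmna*-/- log2 change minus the WT log2 change. Of 93 named genes with a called difference, 38 lost the call in at least 1 of the 12 fits without 1 heart. They are listed under the results flagged for a closer look.

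**Figure D1:**
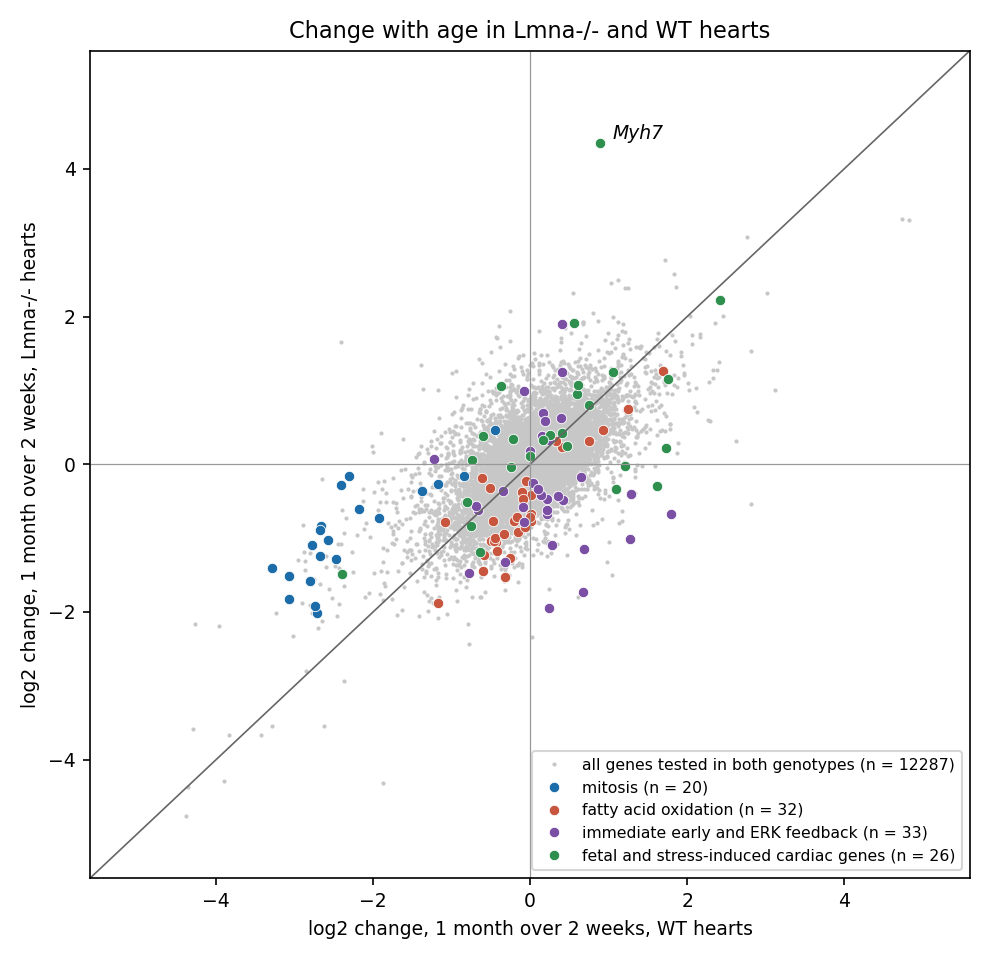
Each point is a gene tested in both genotypes, with its log2 change from 2 weeks to 1 month in WT hearts (x axis) and in *Lmna*-/- hearts (y axis), and colours mark members of 4 gene lists. Most mitosis genes lie at the left and above the diagonal, most fatty acid oxidation genes lie below it, and *Myh7* stands alone at the top with 4.35 against 0.89.

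Of all genes called higher, the largest log2 fold change was that of *Myh7* (ENSMUSG00000053093, chromosome 14, 54970684 to 54994626, minus strand), the slow beta-myosin heavy chain that mouse ventricles express before birth and again under load. It was at 93.5, 58.7 and 74.0 CPM at 2 weeks and 3133, 552 and 934 CPM at 1 month in the *Lmna*-/- hearts. All 3 hearts of 1 month were far above those of 2 weeks, and heart 1 was several times higher than the other two. The log2 fold change was 4.35 ± 0.52 (SE, edgeR adjusted p = 8.20e-05). WT hearts went from 42.6 ± 9.70 to 77.8 ± 17.9 CPM, and the difference between the genotypes was 3.49 ± 0.62 (SE, edgeR adjusted p = 0.00398). Adult alpha-myosin, *Myh6*, did not pass the test, with a log2 fold change of 0.005 ± 0.17 (SE, edgeR adjusted p = 0.986). Per kilobase of exon, *Myh7* made up 0.192%, 0.15% and 0.153% of the reads of these 2 myosins in the *Lmna*-/- hearts of 2 weeks and 7.28%, 1.01% and 2.13% in those of 1 month, against 0.143%, 0.13% and 0.18% in WT hearts of 1 month. The *Myh7* transcript thus remained the minor one of these 2 in every heart. The sequences of these myosins are near-identical, and the study's methods keep uniquely mapped reads.

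Ventricular stress genes moved with it. Natriuretic peptide B, *Nppb*, which the ventricle releases when stretched, was at 41.5, 62.7 and 65.6 CPM at 2 weeks and 170.4, 99.2 and 82.3 CPM at 1 month in *Lmna*-/- hearts and at 107, 78.9 and 71.7 CPM at 2 weeks and 39.6, 73.2 and 83.1 CPM at 1 month in WT hearts. Between the *Lmna*-/- ages there was no overlap, with heart 1 of 1 month the highest, and the WT ages overlapped. Its log2 fold change was 1.06 ± 0.24 (SE, edgeR adjusted p = 0.00466) in *Lmna*-/- hearts, and the difference from the WT change was 1.46 ± 0.37 (SE, edgeR adjusted p = 0.027). *Ankrd1*, a titin-associated and stretch-responsive cofactor, was at 651, 539 and 890.2 CPM at 2 weeks and 4332, 1699 and 1859 CPM at 1 month, a change of 1.92 ± 0.31 (SE, edgeR adjusted p = 6.23e-04). The difference from the WT change was 1.38 ± 0.38 (SE, edgeR adjusted p = 0.0354). *Fhl1*, a LIM protein of the sarcomeric stretch sensor, was at 112, 155 and 119 CPM at 2 weeks and 387, 247 and 239 CPM at 1 month, a change of 1.18 ± 0.18 (SE, edgeR adjusted p = 4.46e-04), with all 3 hearts of 1 month above the others and a difference of 0.80 from the WT change. The atrial peptide *Nppa* was at 17.7, 222 and 279.8 CPM at 2 weeks and 1227, 596 and 606 CPM at 1 month and rose by 2.22, but heart 1 of 2 weeks is the heart with few atrial reads, and DESeq2 did not call this rise (adjusted p = 0.0865). The WT change was 2.41, and there too the atrial sums given above were lower in all 3 hearts of 2 weeks than in those of 1 month. The part of the atrial share in both changes was not tested. The atrial light chains *Myl7* and *Myl4* were at 65.8, 571 and 768 CPM at 2 weeks and 512, 444 and 440.1 CPM at 1 month and at 54.0, 484 and 602 CPM at 2 weeks and 525, 406 and 399.6 CPM at 1 month, and neither passed the test.

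**Figure D2:**
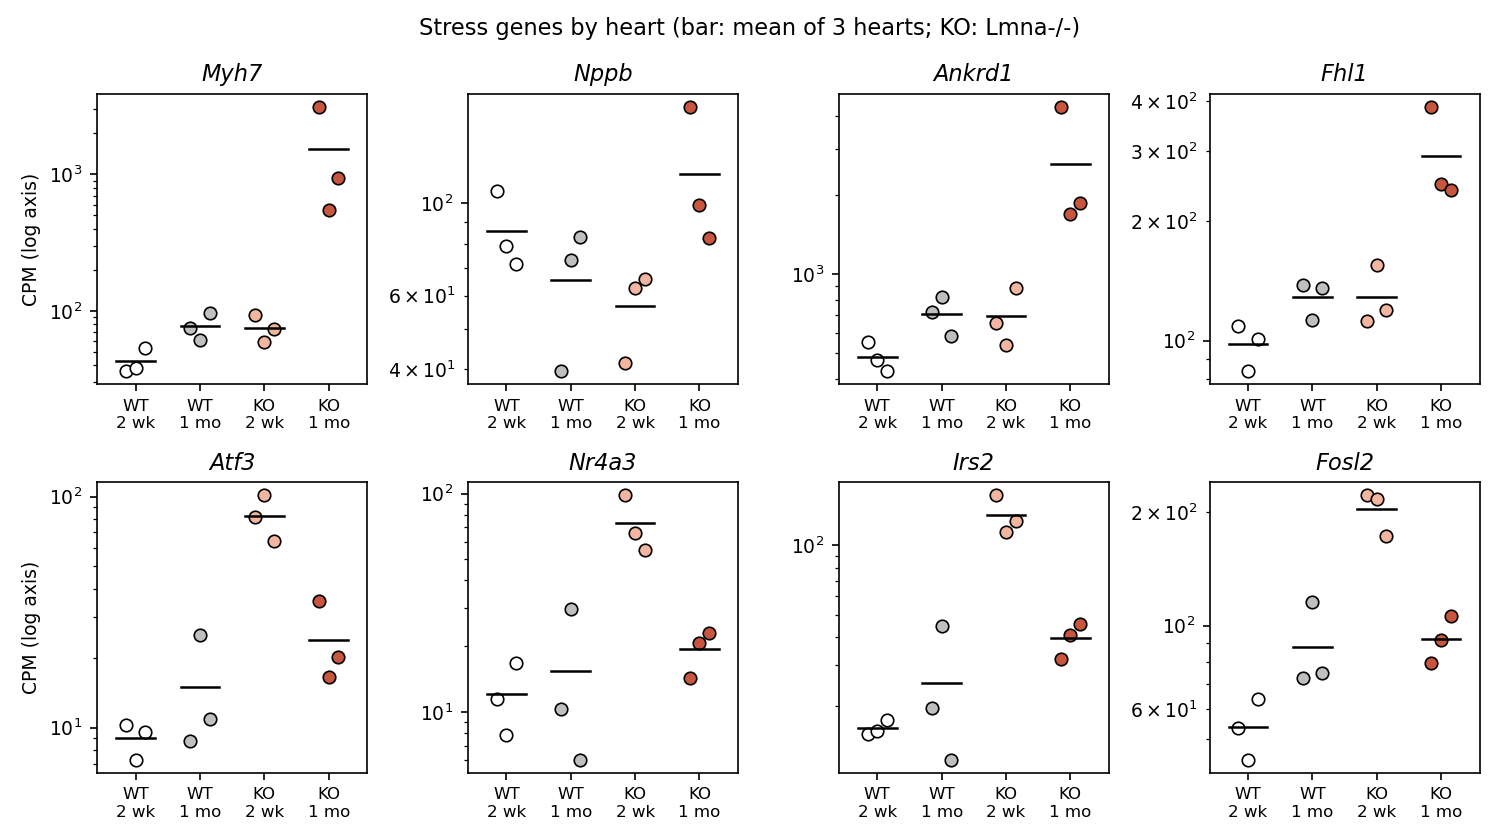
CPM of 8 genes in each heart on a log axis, by genotype and age, with a bar at the mean of 3 hearts. *Myh7*, *Nppb*, *Ankrd1* and *Fhl1* have their highest mean in the *Lmna*-/- hearts of 1 month, whereas *Atf3*, *Nr4a3*, *Irs2* and *Fosl2* have theirs in the *Lmna*-/- hearts of 2 weeks.

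Of 29 tested genes linked to fetal programs and cardiac stress, 14 rose and 4 fell, with a median log2 fold change of 0.34 against 0.015 over all genes tested. The WT hearts shared this rise of the list, with 16 of 28 genes higher and 6 lower at a median of 0.48. Without the *Lmna*-/- hearts with lung markers or few atrial reads 9 rose and 7 fell, at a median of 0.14. Skeletal alpha-actin *Acta1* (from 80.2 ± 36.8 to 178 ± 46.2 CPM), the T-type calcium channel *Cacna1h* (from 22.0 ± 6.26 to 52.1 ± 12.1 CPM) and the thin-filament repair protein *Xirp2* (from 709 ± 40.03 to 1379 ± 304 CPM) rose, yet WT hearts rose with them and the differences between genotypes were not called. Smooth muscle actin *Acta2* (from 998 ± 138 to 440.0 ± 52.6 CPM), periostin *Postn* (from 687 ± 203 to 246 ± 42.8 CPM) and fetal troponin I *Tnni1* (from 12.9 ± 5.90 to 7.08 ± 1.04 CPM) fell. The rise of the stress genes was thus uneven. The change was called more positive than in WT hearts for *Myh7*, *Nppb*, *Ankrd1*, *Postn* (0.93) and *Synpo2l* (0.57), and more negative for the pacemaker channel *Hcn4* (−1.41). The 4 atrial markers tested for the difference were also more negative in *Lmna*-/- hearts, at a median of −1.31 with no call. The part of the atrial share in the *Hcn4* difference was not tested. Without heart 1 of 1 month, which had the highest *Myh7*, *Nppb* and *Ankrd1* and held lung markers, 9 of the list rose in place of 14, and 2 were called more positive than in WT in place of 5.

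The promoters of 2 of these genes are shown because the CATTCCT letters of the M-CAT element, at which TEAD factors bind in muscle genes, stand in both. Each sequence is the 250 bases before the gene's first listed start in RefSeq (GRCm38.p6), in lower case, with the match on the opposite strand in capitals.
*Nppb* (chr4:147985650-147985899, plus strand): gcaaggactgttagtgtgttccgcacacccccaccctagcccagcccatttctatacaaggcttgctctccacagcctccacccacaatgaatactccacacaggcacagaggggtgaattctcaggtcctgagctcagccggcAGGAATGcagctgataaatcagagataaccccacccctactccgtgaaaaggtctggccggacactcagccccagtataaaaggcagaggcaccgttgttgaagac
*Ankrd1* (chr19:36119845-36120094, minus strand): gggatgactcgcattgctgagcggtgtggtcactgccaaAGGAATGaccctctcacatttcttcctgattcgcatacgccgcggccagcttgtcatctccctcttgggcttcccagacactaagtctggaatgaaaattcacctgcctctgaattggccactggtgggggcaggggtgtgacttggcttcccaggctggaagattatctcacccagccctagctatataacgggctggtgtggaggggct
In windows from 250 bases before to 50 bases after the start, the M-CAT letters were found on either strand for 9 of 25 fetal and stress genes (36.0%) and for 1427 of 27025 genes in all (5.28%). Such a match is a description of the letters and not evidence of binding.

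Genes of the adult sarcomere changed in both directions, with 11 of 30 higher and 8 lower, or 4 lower without heart 3 of 1 month. The shares over all genes tested were 16.2% and 17.8%. *Tnni3*, adult cardiac troponin I, was at 4259, 4382 and 4073 CPM at 2 weeks and 1912, 2378 and 2306 CPM at 1 month, a change of −0.95 ± 0.12 (SE, edgeR adjusted p = 1.49e-04), whereas the WT change was −0.15 and the difference was called (−0.78). Cardiac actin *Actc1* (from 14560.0 ± 3037 to 9294 ± 1475 CPM), *Tpm1* (from 13170.0 ± 433 to 8580.0 ± 592 CPM) and the ventricular light chain *Myl2* (from 7808 ± 478 to 5136 ± 524 CPM) fell in both genotypes. *Myom2* of the M-band was at 1758, 894 and 1644 CPM at 2 weeks and 3194, 2380.0 and 2482 CPM at 1 month, a change of 0.90 ± 0.21 (SE, edgeR adjusted p = 0.00654), and *Myom3* rose from 2.71 ± 0.125 to 6.53 ± 1.18 CPM in *Lmna*-/- hearts, with a difference of 1.19 that was not called. *Tcap* (from 333 ± 35.0 to 688 ± 68.5 CPM) and nebulin *Neb* (from 23.6 ± 7.21 to 53 ± 10.8 CPM) rose in both genotypes. Myospryn, *Cmya5*, rose less than in WT hearts, with a difference of −0.57.

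Calcium handling genes gave 3 rises and 6 falls among 26, against 16.2% and 17.8% over all genes tested. Calsequestrin *Casq2* (from 1650.0 ± 195 to 1128 ± 140.2 CPM), triadin *Trdn* (from 481 ± 13.3 to 344 ± 28.8 CPM) and *S100a1* (from 363 ± 19.5 to 229 ± 29.2 CPM) fell, and the ryanodine receptor *Ryr2* (from 3834 ± 358 to 5062 ± 336 CPM) rose. The calcium pump *Atp2a2* went from 9454 ± 834 to 12070.0 ± 1319 CPM in *Lmna*-/- hearts and from 9482 ± 489 to 18170.0 ± 1510.0 CPM in WT hearts. The rise was called in WT only, but the difference of −0.59 ± 0.18 (SE, edgeR adjusted p = 0.0575) was not. *Hrc*, a calcium-binding protein of the sarcoplasmic reticulum, was at 651, 541 and 539 CPM at 2 weeks and 479, 609 and 536 CPM at 1 month in *Lmna*-/- hearts, with overlapping groups, while WT hearts were at 525, 485 and 523 CPM at 2 weeks and 1127, 899.6 and 1062 CPM at 1 month. That difference was −1.10 ± 0.16 (SE, edgeR adjusted p = 0.00132).

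Ion channels and gap junction genes gave 10 rises and 6 falls among 30, against 16.2% and 17.8% over all genes tested. When any of hearts 2 and 3 of 1 month or 1 and 2 of 2 weeks was left out, 5 or 6 rose. The potassium channel subunit *Kcna5*, which carries an ultrarapid repolarizing current, was at 65.1, 42.5 and 52.2 CPM at 2 weeks and 16.3, 16.9 and 15.0 CPM at 1 month. No heart of 1 month reached the level of a 2-week heart, the change was −1.73 ± 0.15 (SE, edgeR adjusted p = 1.22e-05), and the difference from the WT change was −1.15. *Kcne1*, the auxiliary subunit of the slow delayed rectifier, fell from 107 ± 19.6 to 29.1 ± 4.46 CPM in *Lmna*-/- hearts and further in WT hearts (from 127 ± 25.2 to 17.9 ± 4.32 CPM), a difference of 0.92. The *Kcnip2* and *Kcnd3* subunits of the transient outward current channel had a lower change than in WT hearts. Both calls, and that of *Kcne1*, were lost when some hearts were left out. *Kcnip2* was at 137, 101 and 98.4 CPM at 2 weeks and 94.6, 131 and 117 CPM at 1 month in *Lmna*-/- hearts, while WT hearts went from 95.2 ± 2.05 to 161 ± 11.8 CPM, and *Kcnd3* went from 13.5 ± 2.77 to 19 ± 0.936 CPM in *Lmna*-/- and from 10.5 ± 0.671 to 25.6 ± 3.00 CPM in WT hearts, with differences of −0.74 and −0.80. Connexin 43, *Gja1*, rose from 585 ± 88.4 to 742 ± 33.6 CPM.

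Among 34 genes of adrenergic and G protein signaling 8 rose and 10 fell, against 16.2% and 17.8% over all genes tested. Once the hearts with lung markers or few atrial reads were left out 3 rose. The beta-1 receptor *Adrb1* rose from 14.5 ± 3.23 to 22.1 ± 0.664 CPM and the alpha-1B receptor *Adra1b* fell from 46.9 ± 0.805 to 30.0 ± 6.67 CPM. The alpha-1A receptor *Adra1a* was at 21.1, 13.3 and 20.2 CPM at 2 weeks and 14.9, 28.1 and 19.5 CPM at 1 month in *Lmna*-/- hearts and at 7.53, 8.04 and 8.48 CPM at 2 weeks and 23.3, 31.2 and 32.4 CPM at 1 month in WT hearts, where all hearts of 1 month lay above those of 2 weeks. In *Lmna*-/- hearts the ages overlapped, and the difference was −1.71 ± 0.31 (SE, edgeR adjusted p = 0.00452). The purinergic receptor *P2ry1* rose from 9.22 ± 0.834 to 13.4 ± 1.35 CPM in *Lmna*-/- and from 8.92 ± 0.983 to 31.0 ± 5.63 CPM in WT hearts, a difference of −1.22.

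Genes of oxidative phosphorylation fell as a group in the *Lmna*-/- hearts. Of 80 nuclear-encoded subunits tested 58 fell and 2 rose, with a median log2 fold change of −0.45. In WT hearts 26 fell and 15 rose, with a median of −0.093. The difference between genotypes was called for 25 of the 80, and for 24 of them the *Lmna*-/- change was the more negative. Without WT heart 2 of 2 weeks 9 of the 80 were called more negative. Without the hearts with thymus or lung markers 2 of the 80 were called more negative, with a median difference of −0.28 in place of −0.35. The share of the mitochondrial genome also fell with age in both genotypes, as given above, and its part in these values was not tested. With per-library trends over GC content and exonic length removed 39 fell and 3 rose in *Lmna*-/- hearts, at a median of −0.29, and 17 fell and 21 rose in WT hearts.

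Cardiomyocytes express these genes at high levels, and their markers moved too. Of 10 cardiomyocyte markers 5 fell and 2 rose in *Lmna*-/- hearts, at a median log2 fold change of −0.23, and 3 fell and 2 rose in WT hearts, at a median of 0.048. With 1 *Lmna*-/- heart left out 2 to 5 fell. The sum of these markers was 88530, 83930 and 85750 CPM in the *Lmna*-/- hearts of 2 weeks and 71840, 88450 and 74230 CPM in those of 1 month, where hearts 1 and 3 were below every 2-week heart. The part of cardiomyocyte content in the fall of the oxidative genes was not tested.

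Complex I, which takes electrons from NADH, accounted for 27 of the 58 falls among 36 subunits. No subunit of complexes I to IV rose, either in edgeR or in DESeq2, and 0 had an unadjusted p under 0.05 in that direction. With GC and length trends removed 17 complex I subunits fell and 1 rose in *Lmna*-/- hearts, and in WT hearts 4 fell and 11 rose, in place of 11 and 6. *Ndufa13* was at 513, 505 and 475 CPM at 2 weeks and 218, 232 and 232 CPM at 1 month, a change of −1.14 ± 0.093 (SE, edgeR adjusted p = 7.11e-06), and the difference from the WT change was −0.71. *Ndufs8*, an iron-sulfur subunit, went from 230.2 ± 17.2 to 125 ± 12 CPM and had a difference of −0.61. *Ndufs7* went from 208 ± 17.2 to 133 ± 7.21 CPM in *Lmna*-/- and from 163 ± 12.7 to 174 ± 13.0 CPM in WT hearts, and the flavoprotein subunit *Ndufv1* went from 627 ± 47.1 to 484 ± 6.94 CPM in *Lmna*-/- and from 494 ± 44.8 to 572 ± 39.4 CPM in WT hearts. Thus *Ndufs7* and *Ndufv1* fell in the former alone past the threshold, with differences of −0.76 and −0.59. Complexes II and III gave 8 falls among 13, or 5 without heart 3 of 1 month and 5 with those trends removed. *Uqcr11* was at 483, 452 and 439 CPM at 2 weeks and 236, 238 and 237 CPM at 1 month and changed by −0.96 ± 0.092 (SE, edgeR adjusted p = 1.93e-05), and the core protein *Uqcrc1* fell from 1122 ± 86.8 to 723 ± 83.1 CPM. The Rieske protein *Uqcrfs1* did not change in *Lmna*-/- hearts past the threshold (from 478 ± 30.7 to 480.4 ± 58.4 CPM) and rose in WT hearts (from 445 ± 51.4 to 702 ± 70.9 CPM), a difference of −0.65.

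Complex IV, cytochrome c oxidase, gave 11 falls among 14. *Cox6a2* was at 1166, 1030.0 and 1011 CPM at 2 weeks and 424, 469 and 444 CPM at 1 month, a change of −1.27 ± 0.10 (SE, edgeR adjusted p = 7.51e-06), and *Cox7a1* was at 534, 463 and 457 CPM at 2 weeks and 224, 257 and 255 CPM at 1 month, a change of −0.99 ± 0.10 (SE, edgeR adjusted p = 3.36e-05). No heart of 1 month reached the level of a 2-week heart for either gene. The WT changes were −0.51 and −0.059, and the differences of −0.74 and −0.91 were called. *Cox8a* (from 168 ± 25.5 to 66.0 ± 2.79 CPM) and cytochrome c, *Cycs* (from 638 ± 49.5 to 307 ± 30.0 CPM), fell in both genotypes with no call for a difference. Among 17 genes of complex V, the ATP synthase, 12 fell and 2 rose. *Atp5d* (from 545 ± 38.2 to 248 ± 22.3 CPM) and the ring subunit *Atp5g1* (from 824 ± 125 to 414 ± 61.1 CPM) fell more than in WT hearts, with differences of −0.58 and −0.81. The inhibitor *Atpif1* went the other way, with a fall from 113 ± 4.52 to 72.1 ± 8.92 CPM that was shallower than that of WT hearts (from 136 ± 11.0 to 41.2 ± 2.72 CPM, difference 1.07). The small subunits *Atp5j* (0.57) and *Atp5e* (0.72) rose.

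**Figure D3:**
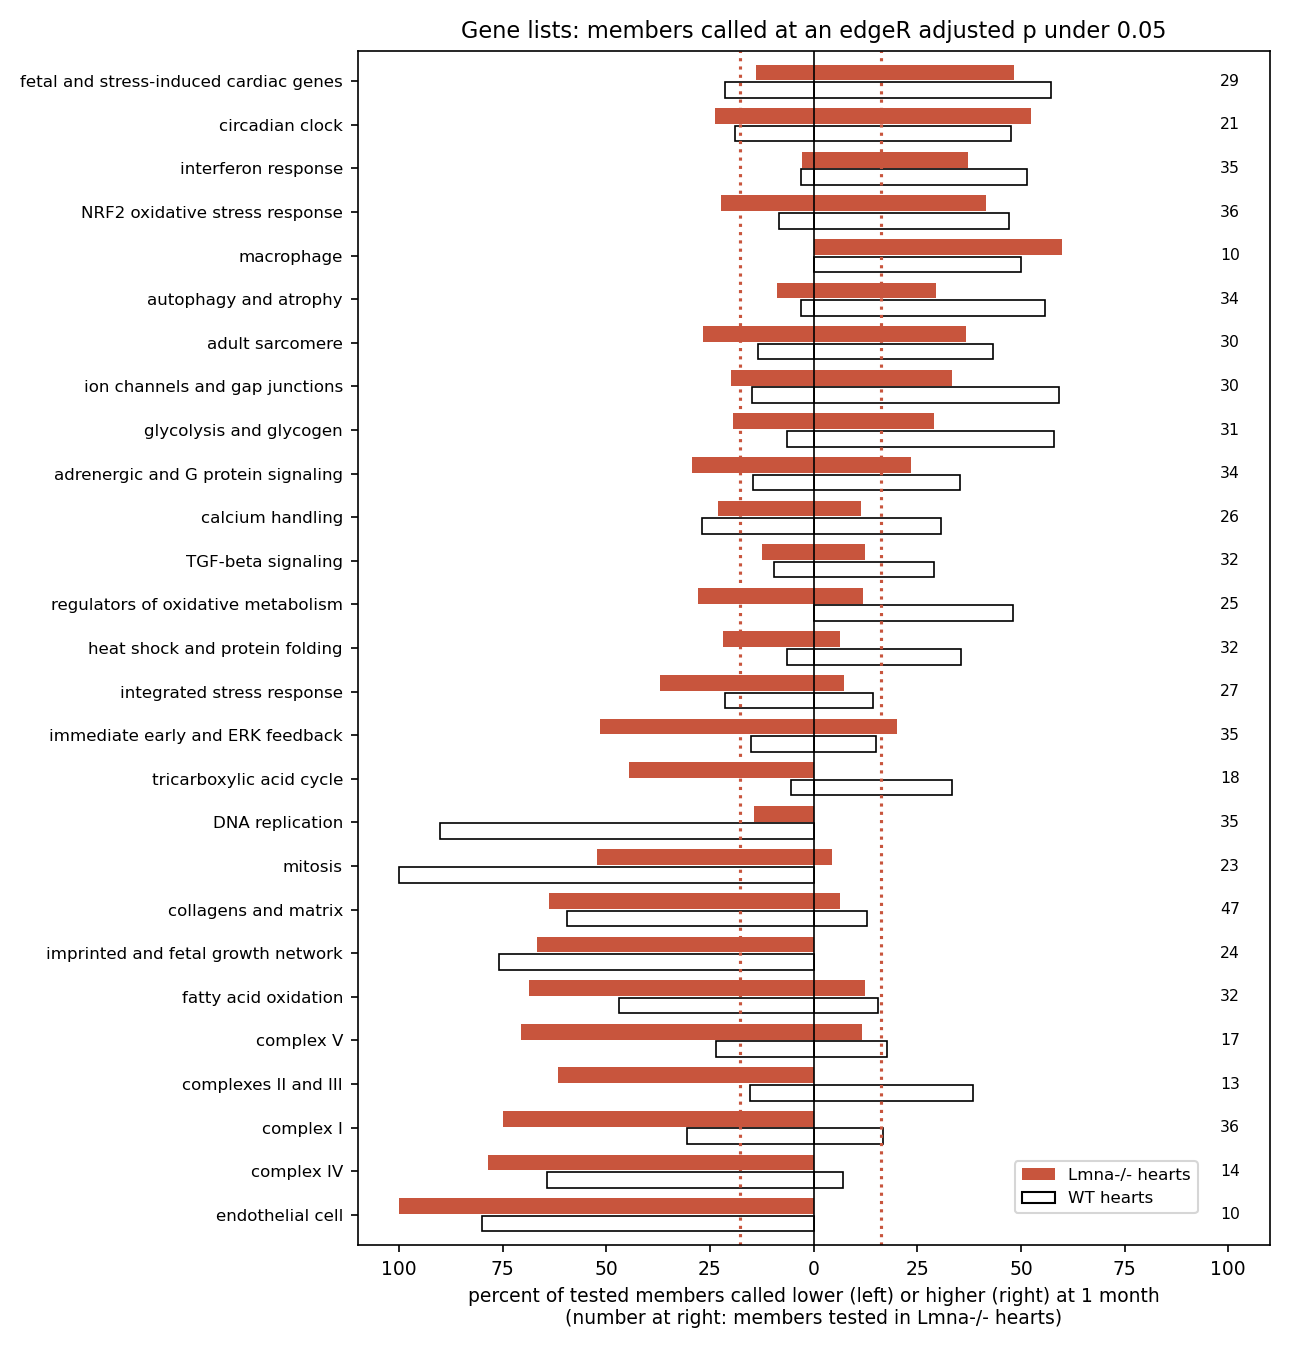
Percent of the tested members of each gene list that rose (right) or fell (left) from 2 weeks to 1 month in *Lmna*-/- hearts (filled bars) and in WT hearts (open bars), with dotted lines at the percent of all tested *Lmna*-/- genes called, 16.2% and 17.8%. Falls exceed rises by the most in endothelial markers, complex IV and complex I.

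Fatty acid oxidation, the main fuel pathway of the adult heart, had a lower median change than each complex of the chain except complex IV. Of 32 genes tested 22 fell and 4 rose in *Lmna*-/- hearts, with a median log2 fold change of −0.76, against 15 falls and 5 rises in WT hearts at a median of −0.18. The *Lmna*-/- change was the more negative for 18 of them, for 9 without WT heart 2 of 2 weeks and for 2 without all 3 hearts with thymus or lung markers, where the median difference was −0.47 in place of −0.53. *Fabp3*, the heart's fatty acid binding protein, was at 2957, 2969 and 2564 CPM at 2 weeks and 749, 869 and 692 CPM at 1 month, a change of −1.89 ± 0.13 (SE, edgeR adjusted p = 1.41e-06). *Ech1*, a dienoyl-CoA isomerase, was at 1150.0, 963 and 996 CPM at 2 weeks and 382, 348 and 358 CPM at 1 month in *Lmna*-/- hearts and went from 798 ± 61.4 to 635 ± 68.8 CPM in WT hearts. The difference was −1.18 ± 0.15 (SE, edgeR adjusted p = 4.71e-04). *Cpt2*, which rebuilds acyl-CoA inside the mitochondrion, was at 249, 208 and 238 CPM at 2 weeks and 83.5, 109.7 and 98.9 CPM at 1 month, a change of −1.26 ± 0.11 (SE, edgeR adjusted p = 1.34e-05) and a difference of −0.98.

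The trifunctional protein subunits *Hadha* (from 2179 ± 104 to 931 ± 73.7 CPM) and *Hadhb* (from 1268 ± 63.3 to 800.0 ± 87.9 CPM), the acyl-CoA dehydrogenases *Acadvl* (from 508 ± 15.5 to 272 ± 27.1 CPM) and *Acadm* (from 1117 ± 58.8 to 685 ± 34.8 CPM), the synthetase *Acsl1* (from 1647 ± 78.2 to 800.3 ± 120.2 CPM) and carnitine acetyltransferase *Crat* (from 666 ± 43.9 to 298 ± 18 CPM) fell too. Each fell more than in WT hearts, with differences of −0.62, −0.66, −0.74, −0.52, −0.59 and −0.73. The calls of *Acadm* and *Acsl1* were lost in 8 and 7 of the 12 fits without 1 heart, those of *Hadha* and *Hadhb* in 1 each. All of these calls were lost without the hearts with thymus or lung markers. A few genes that supply fatty acids rose in both genotypes. Lipoprotein lipase, *Lpl*, was at 1805, 1413 and 1597 CPM at 2 weeks and 4302, 3457 and 3816 CPM at 1 month, a change of 1.26 ± 0.14 (SE, edgeR adjusted p = 4.06e-05), and the triglyceride lipase *Pnpla2* rose by 0.47. The transporter *Cd36* went the other way and fell from 2090.0 ± 153 to 1575 ± 189.9 CPM.

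In the tricarboxylic acid cycle 8 of 18 genes fell, among them *Idh3g* (from 562 ± 38.1 to 305 ± 11.6 CPM). In WT hearts 1 fell and 6 rose, and the median difference was −0.41. Enzymes that break down branched-chain amino acids and ketones split into 7 rises and 6 falls among 23 in *Lmna*-/- hearts. Of all genes tested there 16.2% rose and 17.8% fell. WT hearts gave 14 rises and 3 falls, and the median difference was −0.44. *Oxct1*, which lets the heart burn ketones, rose from 512 ± 32.8 to 856 ± 94.4 CPM. *Ivd*, of leucine breakdown, rose less than in WT hearts, and *Mccc2*, of the same path, rose in WT hearts only past the threshold, with differences of −0.94 and −0.94.

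Glycolysis and glycogen genes moved both ways in *Lmna*-/- hearts. Of 31 genes 9 rose and 6 fell in *Lmna*-/- hearts, against 18 rises and 2 falls in WT hearts, and the *Lmna*-/- change was the more negative for 10, or for 4 without WT heart 2 of 2 weeks. Without *Lmna*-/- heart 2 of 2 weeks 3 fell in place of 6. The shares over all genes tested in *Lmna*-/- hearts were 16.2% rises and 17.8% falls. The insulin-responsive glucose transporter *Slc2a4* was at 169, 186 and 170.5 CPM at 2 weeks and 191, 212 and 198 CPM at 1 month in *Lmna*-/- hearts and at 165, 153 and 160.2 CPM at 2 weeks and 288, 246 and 332 CPM at 1 month in WT hearts. The ages did not overlap in either genotype, but the *Lmna*-/- change of 0.18 did not pass the test, and the difference was −0.67 ± 0.14 (SE, edgeR adjusted p = 0.0103). Muscle phosphofructokinase *Pfkm*, glycogen synthase *Gys1* and glycogen phosphorylase *Pygm* rose in WT hearts and were not called in *Lmna*-/- hearts, with differences of −0.58, −0.54 and −0.78. *Pkm* fell from 1465 ± 168 to 844 ± 91.3 CPM. The fetal-type transporter *Slc2a1* (from 6.51 ± 1.15 to 15.9 ± 3.58 CPM) and the glycolytic activator *Pfkfb3*, at 9.99, 8.55 and 10.1 CPM at 2 weeks and 42.5, 26.2 and 44.4 CPM at 1 month, rose.

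Of 25 regulators of oxidative metabolism 3 rose and 7 fell in *Lmna*-/- hearts (4 fell without heart 1 of 1 month), whereas 12 rose in WT hearts. Over all genes tested 16.2% rose and 17.8% fell in *Lmna*-/- hearts, and 20.4% rose in WT hearts. The nuclear receptor *Ppara*, which drives fatty acid oxidation genes, was at 66.3, 46.4 and 39.4 CPM at 2 weeks and 38.1, 37.8 and 45.0 CPM at 1 month in *Lmna*-/- hearts and at 45.0, 36.4 and 40.1 CPM at 2 weeks and 67.3, 58.1 and 68.8 CPM at 1 month in WT hearts. The *Lmna*-/- groups overlapped and the WT groups did not, and the difference was −1.0 ± 0.22 (SE, edgeR adjusted p = 0.0116). *Esrra* fell from 87.7 ± 10.8 to 61.4 ± 3.98 CPM and *Rxrg* fell from 41.8 ± 5.27 to 28.9 ± 4.0 CPM, with differences of −0.67 and −1.06. The muscle coactivator *Perm1* had a difference of −0.80. *Ppargc1a* was at 481, 208 and 266 CPM at 2 weeks and 171, 190.1 and 185 CPM at 1 month, a change of −0.81 ± 0.23 (SE, edgeR adjusted p = 0.0148), but its difference of −0.59 was not called. *Ogdhl*, an oxoglutarate dehydrogenase subunit, was at 84.6, 66.8 and 58.9 CPM at 2 weeks and 87.3, 93.6 and 81.3 CPM at 1 month in *Lmna*-/- hearts and at 22.6, 15.1 and 25.4 CPM at 2 weeks and 142, 108 and 146 CPM at 1 month in WT hearts. At 2 weeks the *Lmna*-/- hearts were several times above WT hearts and at 1 month below them, and the difference was −2.30 ± 0.22 (SE, edgeR adjusted p = 5.49e-05). *Nmrk2*, a nicotinamide riboside kinase of stressed muscle, was at 24.2, 35.9 and 14.7 CPM at 2 weeks and 47.0, 39.7 and 65.5 CPM at 1 month, a change of 1.02 ± 0.25 (SE, edgeR adjusted p = 0.00786).

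**Figure D4:**
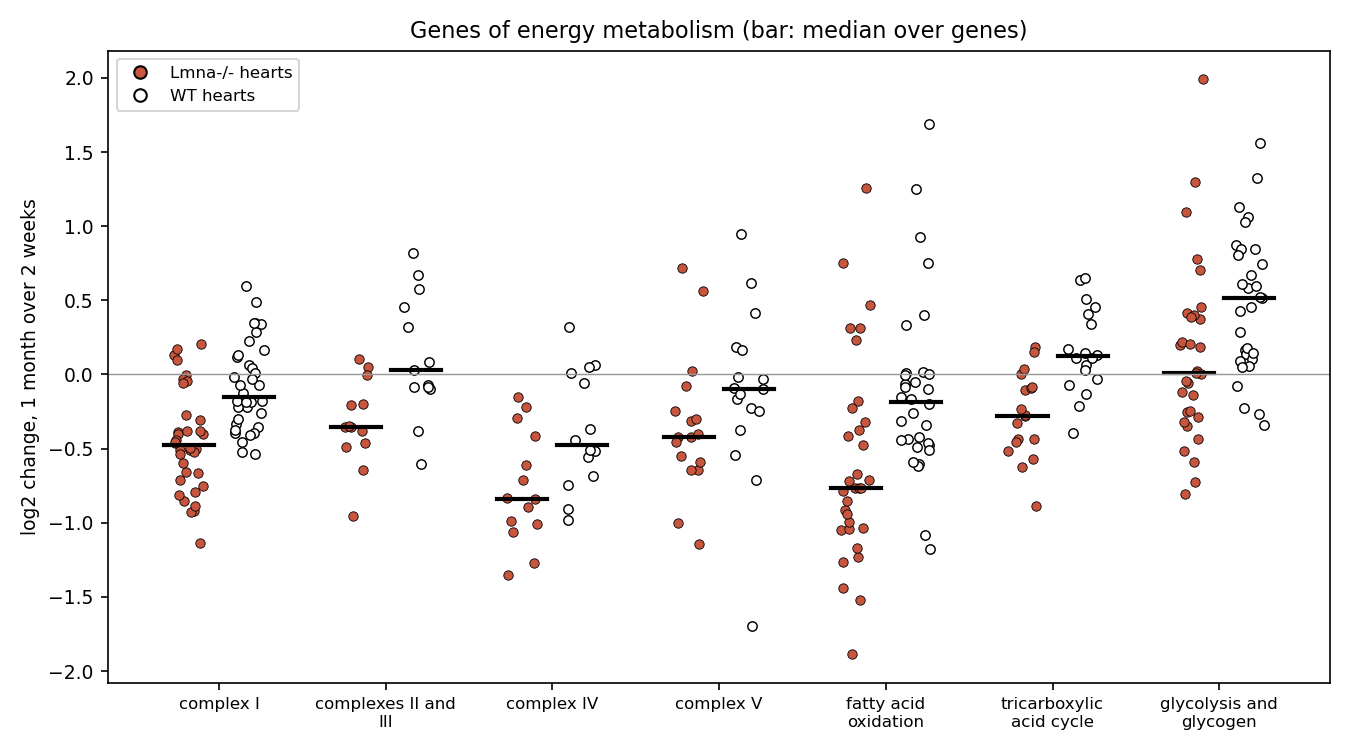
Log2 change from 2 weeks to 1 month of every tested gene of the respiratory complexes, fatty acid oxidation, the tricarboxylic acid cycle and glycolysis, with *Lmna*-/- hearts as filled and WT hearts as open points and a bar at the median. In each list the *Lmna*-/- median lies below the WT median.

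A second set of genes was high in the *Lmna*-/- hearts of 2 weeks and came down by 1 month. Immediate early genes are transcribed within minutes of a stimulus, and several are switched off by phosphatases of the ERK pathway. Of 35 genes of this kind 18 fell and 7 rose in *Lmna*-/- hearts, with a median log2 fold change of −0.42, against 5 falls and 5 rises in WT hearts. The change was called more negative than in WT hearts for 10 of them, and for 5 without WT heart 2 of 2 weeks. The stress factor *Atf3* (ENSMUSG00000026628, chromosome 1, 191170296 to 191218039, minus strand) was at 81.3, 101 and 64.3 CPM at 2 weeks and 35.4, 16.5 and 20.1 CPM at 1 month in *Lmna*-/- hearts and at 10.3, 7.29 and 9.56 CPM at 2 weeks and 8.79, 25.3 and 10.9 CPM at 1 month in WT hearts. All *Lmna*-/- hearts of 2 weeks were above all others, and at 1 month the ranges of both genotypes overlapped. The log2 fold change was −1.73 ± 0.23 (SE, edgeR adjusted p = 1.87e-04) and the difference −2.38 ± 0.46 (SE, edgeR adjusted p = 0.00605).

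The orphan nuclear receptors *Nr4a1*, *Nr4a2* and *Nr4a3* shared this pattern. *Nr4a1* was at 211, 189 and 215 CPM at 2 weeks and 138, 114 and 135 CPM at 1 month in *Lmna*-/- and at 15.3, 10.3 and 22.5 CPM at 2 weeks and 55.9, 103 and 17.9 CPM at 1 month in WT hearts. It fell in *Lmna*-/- hearts and rose in WT hearts, a difference of −2.46 ± 0.53 (SE, edgeR adjusted p = 0.0119), and every *Lmna*-/- heart was still above every WT heart of its age. *Nr4a3* was at 98.4, 65.8 and 55.4 CPM at 2 weeks and 14.3, 20.7 and 23.1 CPM at 1 month, a change of −1.95 ± 0.21 (SE, edgeR adjusted p = 4.56e-05), and *Nr4a2* went from 34.4 ± 4.59 to 16.9 ± 5.14 CPM. The differences were −2.16 and −2.22. The AP-1 member *Fosl2* went from 204 ± 26.9 to 92.4 ± 13.0 CPM in *Lmna*-/- and from 53.9 ± 9.97 to 87.7 ± 24.2 CPM in WT hearts, and *Klf4* went from 105 ± 19.2 to 49.2 ± 2.59 CPM and from 43.8 ± 8.67 to 53.4 ± 6.53 CPM. The small GTPase *Gem*, which restrains calcium channels, was at 37.1, 30.4 and 28.5 CPM at 2 weeks and 12.9, 8.68 and 16.5 CPM at 1 month, a change of −1.32 ± 0.18 (SE, edgeR adjusted p = 2.39e-04) and a difference of −2.28.

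Some members of the list rose instead. The phosphatase *Dusp4* was at 3.04, 2.59 and 4.11 CPM at 2 weeks and 17.4, 7.03 and 10.8 CPM at 1 month, a change of 1.90 ± 0.32 (SE, edgeR adjusted p = 7.69e-04), while WT hearts went from 2.17 ± 1.18 to 2.72 ± 0.468 CPM. *Egr1* was at 24.7, 38.1 and 54.3 CPM at 2 weeks and 103, 69.4 and 106 CPM at 1 month, a change of 1.25 ± 0.23 (SE, edgeR adjusted p = 0.00145). *Etv5* (0.69), *Phlda1* (0.99) and *Spred1* (0.63) rose as well. No rise in this list was called different from the WT change. That of *Dusp4* differed by 1.5 ± 0.57 (SE, edgeR adjusted p = 0.113).

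The insulin receptor substrate *Irs2* was at 166, 115 and 128 CPM at 2 weeks and 32.1, 40.9 and 45.5 CPM at 1 month in *Lmna*-/- hearts and at 15.1, 15.6 and 17.4 CPM at 2 weeks and 19.5, 44.4 and 11.7 CPM at 1 month in WT hearts. Every *Lmna*-/- heart of 2 weeks lay above every other heart, and at 1 month the genotypes overlapped. The change was −1.80 ± 0.15 (SE, edgeR adjusted p = 8.58e-06) and the difference −2.39 ± 0.43 (SE, edgeR adjusted p = 0.00452). Insulin and IGF signaling genes, *Irs2* included, gave 6 rises and 6 falls among 31, near the shares over all genes tested, 16.2% and 17.8%. The insulin receptor *Insr* (from 229 ± 44.1 to 385 ± 36.5 CPM), *Foxo4* (from 22.6 ± 4.21 to 44.1 ± 6.10 CPM) and *Deptor* (from 29.0 ± 4.70 to 53.3 ± 7.95 CPM) rose in both genotypes.

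Glucocorticoid-responsive genes showed 5 rises and 8 falls among 23, against 16.2% and 17.8% over all genes tested. The *Lmna*-/- change was called more negative for 7 and more positive for 1. Without *Lmna*-/- heart 2 of 2 weeks 3 rose and 10 fell, and leaving out 1 heart moved the median log2 fold change of −0.38 to between −0.595 and −0.181. The 7 became 3 without *Lmna*-/- heart 1 or WT heart 2 of 2 weeks and 4 without *Lmna*-/- heart 3 of 1 month. *Cebpd* (from 20.4 ± 2.14 to 7.53 ± 0.593 CPM), *Errfi1* (from 105 ± 12.7 to 44.4 ± 8.96 CPM), *Sgk1* (from 156 ± 27.7 to 79.7 ± 7.97 CPM) and *Tsc22d3* (from 211 ± 32.5 to 146 ± 30.4 CPM) fell in *Lmna*-/- hearts, with differences of −1.09, −1.14, −0.83 and −0.85. *Fkbp5*, a chaperone induced by the same receptor, was at 18.8, 11.7 and 19.2 CPM at 2 weeks and 72.3, 31.2 and 19.1 CPM at 1 month and rose, with heart 1 of 1 month far above the others. *Angptl4*, an inhibitor of lipoprotein lipase, fell from 52.3 ± 11.6 to 23.2 ± 5.39 CPM in *Lmna*-/- and from 102 ± 35.9 to 14.7 ± 5.38 CPM in WT hearts, a difference of 1.63.

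Genes of the integrated stress response, which ATF4 controls when translation is held back, gave 10 falls and 2 rises among 27. Of all genes tested 17.8% fell and 16.2% rose. *Atf4* fell from 128 ± 0.952 to 72.8 ± 2.40 CPM, and *Ppp1r15a*, which restores translation, fell from 51.8 ± 7.96 to 31.0 ± 5.20 CPM. The serine synthesis enzyme *Psat1* was at 6.83, 8.42 and 7.22 CPM at 2 weeks and 13.9, 9.71 and 10.7 CPM at 1 month in *Lmna*-/- hearts and went from 8.39 ± 1.23 to 3.72 ± 0.739 CPM in WT hearts. It rose in the former and fell in the latter, a difference of 1.81 ± 0.29 (SE, edgeR adjusted p = 0.00218), and the folate enzyme *Mthfd1l* had a difference of 1.55. These 2 genes were the rises of the list in *Lmna*-/- hearts, and neither was called as a rise without heart 1 of 1 month, heart 1 of 2 weeks or heart 3 of 2 weeks. The promoter of *Atf3* is shown because the TGATGCAA letters of the element that ATF4 and its partners bind stand in it, on the opposite strand and in capitals (RefSeq, GRCm38.p6, 250 bases before the first start).
*Atf3* (chr1:191183334-191183583, minus strand): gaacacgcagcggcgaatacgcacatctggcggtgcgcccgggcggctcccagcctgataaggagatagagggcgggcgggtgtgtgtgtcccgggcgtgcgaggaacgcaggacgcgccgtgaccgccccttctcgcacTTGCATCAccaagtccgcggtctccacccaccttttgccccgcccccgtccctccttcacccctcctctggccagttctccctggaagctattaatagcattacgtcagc
These letters were found in the windows of 6 of 28 genes of the list (21.4%) and of 251 of 27025 genes in all (0.93%).

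Genes of mitosis fell in both genotypes, from different heights at 2 weeks to overlapping summed levels at 1 month. At 2 weeks the summed level of 40 mitosis genes was 274 to 372 CPM in *Lmna*-/- hearts and 942 to 1278 CPM in WT hearts, and at 1 month 123 to 228 CPM and 169 to 249 CPM. The genotypes did not overlap at 2 weeks and did at 1 month. In *Lmna*-/- hearts 12 of 23 tested genes fell and 1 rose, with a median log2 fold change of −0.89, whereas in WT hearts 26 of 26 fell, at a median of −2.68. The *Lmna*-/- median depended on the filter on counts. Without it all 40 genes were tested, and 26 fell in *Lmna*-/- hearts at a median of −1.335. In WT hearts 40 fell, at a median of −2.71. Of 20 genes tested for the difference 10 were called, each less negative in *Lmna*-/- hearts.

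The proliferation marker *Mki67* was at 49.7, 79.9 and 55.9 CPM at 2 weeks and 7.62, 36.0 and 12.9 CPM at 1 month, a change of −1.82 ± 0.38 (SE, edgeR adjusted p = 0.00302), and topoisomerase *Top2a* was at 18.7, 40.5 and 19.7 CPM at 2 weeks and 3.98, 10.1 and 6.72 CPM at 1 month, a change of −2.01 ± 0.34 (SE, edgeR adjusted p = 8.53e-04). The checkpoint kinase *Bub1b* was at 4.81, 5.44 and 4.11 CPM at 2 weeks and 3.42, 6.20 and 3.79 CPM at 1 month in *Lmna*-/- hearts and at 16.7, 22.9 and 15.3 CPM at 2 weeks and 4.07, 4.04 and 2.86 CPM at 1 month in WT hearts. Its level did not change past the threshold in the former and fell in the latter, a difference of 2.17 ± 0.36 (SE, edgeR adjusted p = 0.00265). *Tpx2*, *Kif11* and *Aurka* gave differences of 1.90, 1.69 and 2.15. The centromeric histone *Cenpa* was the 1 member that rose, from 17.7 ± 0.764 to 24.6 ± 1.5 CPM.

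Outside the list, 3 further genes of the cell cycle rose in *Lmna*-/- hearts and fell in WT hearts. The Myb factor *Mybl1* was at 2.66, 2.98 and 1.99 CPM at 2 weeks and 8.06, 6.61 and 4.48 CPM at 1 month in *Lmna*-/- hearts and went from 6.62 ± 0.759 to 2.49 ± 1.12 CPM in WT hearts, a difference of 2.76 ± 0.42 (SE, edgeR adjusted p = 0.00161). *Gas2l3*, a linker of actin and microtubules at the midbody, was at 5.94, 8.29 and 5.48 CPM at 2 weeks and 16.4, 12.8 and 10.2 CPM at 1 month, a difference of 2.40 ± 0.29 (SE, edgeR adjusted p = 4.12e-04). *Arhgap11a*, a regulator of small GTPases, was at 3.92, 4.41 and 4.11 CPM at 2 weeks and 10.6, 9.30 and 4.82 CPM at 1 month, a difference of 2.20 ± 0.36 (SE, edgeR adjusted p = 0.00225). For none of the 3 did the *Lmna*-/- ages overlap.

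**Figure D5:**
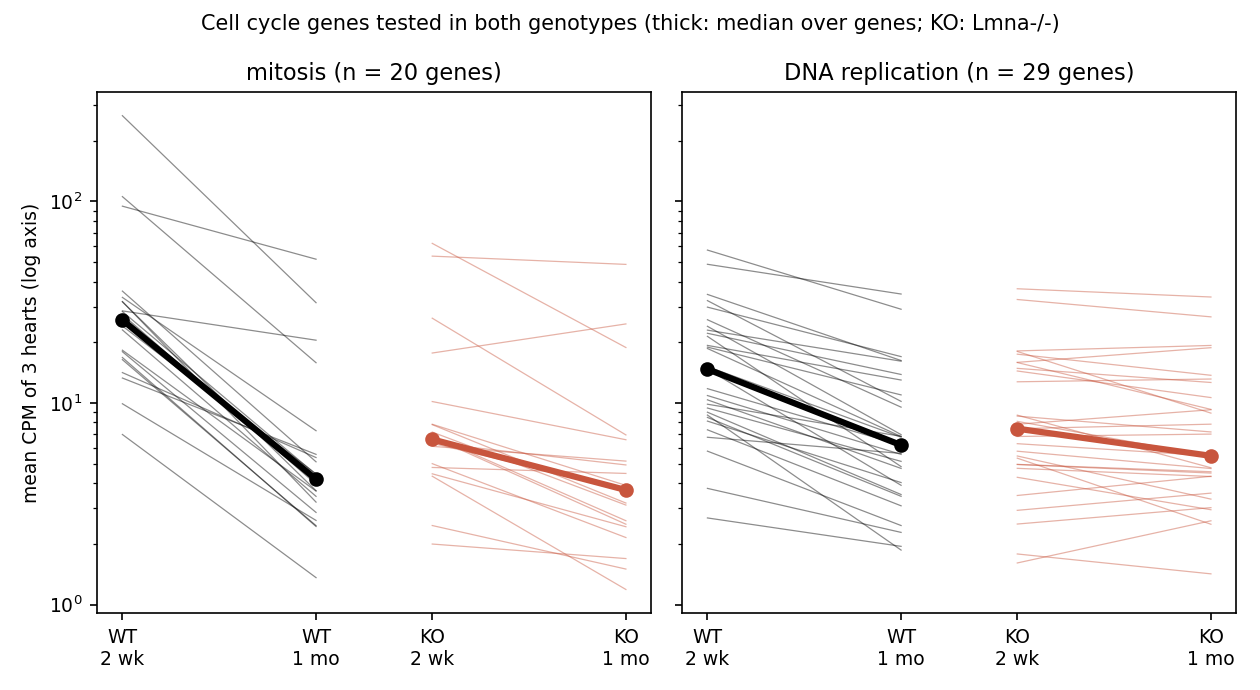
Mean CPM over 3 hearts of each tested mitosis and DNA replication gene (thin lines) in the *Lmna*-/- and WT hearts of 2 weeks and 1 month, on a log axis, with the median over genes as a thick line. The mitosis median goes from 25.8 to 4.18 CPM in WT and from 6.6 to 3.7 CPM in *Lmna*-/- hearts, and the replication median from 14.7 to 6.18 and from 7.45 to 5.46 CPM.

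Of 35 DNA replication genes 5 fell in *Lmna*-/- hearts, a share below the 17.8% of all genes tested, or 1 without heart 1 of 1 month, against 27 of 30 in WT hearts. The helicase subunits *Mcm2* (from 15.9 ± 3.68 to 9.29 ± 2.15 CPM) and *Mcm5* (from 8.70 ± 2.81 to 4.77 ± 1.24 CPM) fell, while *Mcm4* and *Mcm6* were uncalled and differed from the WT change by 1.06 and 1.18. The ribonucleotide reductase subunit *Rrm2* went from 5.76 ± 1.42 to 4.73 ± 2.29 CPM in *Lmna*-/- and from 21.4 ± 5.26 to 4.83 ± 1.16 CPM in WT hearts, a difference of 1.81. Of 26 DNA repair genes 5 fell, or 2 without heart 1 of 1 month, and 3 rose. Both shares were near or below those over all genes tested, 17.8% and 16.2%. The damage kinases *Atm* (from 34.8 ± 3.26 to 53.2 ± 2.51 CPM) and *Atr* (from 34.4 ± 0.212 to 46.0 ± 2.61 CPM) rose, and the change of *Atr* differed from that of WT hearts by 0.68. *Mki67* was at 227, 325 and 246 CPM in the 3 WT hearts of 2 weeks, and heart 2, which held thymus markers, was the highest. Without it the difference was called for 6 mitosis genes and 5 replication genes, in place of 10 and 9, and without all 3 hearts with thymus or lung markers for 4 and 0. Without WT heart 2 alone the median difference of the tested mitosis genes was 1.30 against 1.36.

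Promoters of *Mki67* and *Arhgap11a*, of which the former fell and the latter rose, are shown with the TTTGAA letters of the cell cycle homology region in capitals, at which the DREAM and MuvB complexes bind in genes of the G2 and M phases (RefSeq, GRCm38.p6, 250 bases before the first start).
*Mki67* (chr7:135716380-135716629, minus strand): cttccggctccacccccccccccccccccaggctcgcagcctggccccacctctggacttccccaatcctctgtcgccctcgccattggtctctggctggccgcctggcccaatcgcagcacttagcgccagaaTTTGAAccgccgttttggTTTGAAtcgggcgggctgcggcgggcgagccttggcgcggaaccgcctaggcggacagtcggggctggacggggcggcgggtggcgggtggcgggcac
*Arhgap11a* (chr2:113848662-113848911, minus strand): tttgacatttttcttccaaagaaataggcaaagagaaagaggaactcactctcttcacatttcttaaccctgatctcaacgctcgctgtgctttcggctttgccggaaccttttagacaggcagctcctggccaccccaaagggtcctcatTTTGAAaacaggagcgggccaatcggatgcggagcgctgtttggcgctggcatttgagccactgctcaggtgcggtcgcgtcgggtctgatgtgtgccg
The letters were found on either strand in the windows of 26 of 34 mitosis genes (76.5%) and of 4893 of 27025 genes in all (18.11%).

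Matrix genes fell. Of 47 collagens, matrix proteins and their enzymes 30 fell and 3 rose in *Lmna*-/- hearts, at a median log2 fold change of −0.53, and in WT hearts 28 fell and 6 rose. Collagen III, *Col3a1*, was at 2921, 3537 and 3603 CPM at 2 weeks and 1372, 1783 and 1464 CPM at 1 month, a change of −1.13 ± 0.14 (SE, edgeR adjusted p = 9.27e-05). The WT change was −0.89. Collagen I chains fell too, *Col1a1* from 818 ± 148 to 634 ± 52.9 CPM and *Col1a2* from 925 ± 137 to 691 ± 30.5 CPM. The collagen chaperone *Serpinh1* was at 512, 569 and 438 CPM at 2 weeks and 203, 228 and 234 CPM at 1 month, a change of −1.20 ± 0.11 (SE, edgeR adjusted p = 1.74e-05) and a difference of −0.69 from WT hearts. Thrombospondin 1, *Thbs1*, was at 279, 310.0 and 205 CPM at 2 weeks and 95.2, 88.6 and 126 CPM at 1 month, a change of −1.36 ± 0.16 (SE, edgeR adjusted p = 6.59e-05) and a difference of −0.96. Periostin fell less than in WT hearts, as given above. Collagen VIII, *Col8a1* (from 55.3 ± 6.0 to 125 ± 50.2 CPM), and the cartilage protein *Cilp* (from 34.7 ± 4.07 to 71.7 ± 50.3 CPM), rose in both genotypes. The 3 rises of this list became 1 without *Lmna*-/- heart 1 of 1 month, without heart 1 of 2 weeks, with robust fitting or with the replicate block. The crosslinking enzyme *Lox* went from 44.6 ± 12.4 to 46.3 ± 13.0 CPM in *Lmna*-/- hearts with no call, while it fell in WT hearts, and its difference of 0.83 ± 0.30 (SE, edgeR adjusted p = 0.104) was not called.

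Genes of TGF-beta signaling gave 4 rises and 4 falls among 32, with 7 rises without heart 2 of 1 month. Both shares of the main fit were below those over all genes tested, 16.2% and 17.8%. The ligands *Tgfb1* (from 13.4 ± 0.423 to 17.5 ± 2.79 CPM) and *Tgfb2* (from 30.0 ± 2.67 to 38.5 ± 6.52 CPM) were uncalled. The BMP target *Id1* was at 54.5, 46.2 and 39.98 CPM at 2 weeks and 15.7, 22.5 and 17.7 CPM at 1 month, a change of −1.36 ± 0.15 (SE, edgeR adjusted p = 5.19e-05) and a difference of −1.17 from WT hearts. The imprinted and fetal growth network fell in both genotypes, with 16 of 24 lower in *Lmna*-/- hearts. *Igf2* was at 246, 268 and 307 CPM at 2 weeks and 113, 137 and 121 CPM at 1 month, a change of −1.16 ± 0.11 (SE, edgeR adjusted p = 1.89e-05), and *H19* was at 136, 183 and 193 CPM at 2 weeks and 67.7, 56.8 and 72.7 CPM at 1 month. Their falls were shallower than those of WT hearts, with differences of 0.68 and 1.13, and *Mest* (0.90), *Plagl1* (0.92) and *Slc38a4* (0.80) differed in the same direction. The calls of *Igf2* and *Mest* were each lost in 9 of the 12 fits without 1 heart.

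Markers of cell types moved with age in the *Lmna*-/- hearts. All 10 endothelial markers fell, with a median log2 fold change of −0.56, and their sum went from 2457, 2284 and 2418 to 1485, 1615 and 1611 CPM. In WT hearts 8 of the 10 fell. No difference between the genotypes was called by edgeR or DESeq2, and 3 had an unadjusted p under 0.05, each with the more negative change in *Lmna*-/- hearts. The tight junction gene *Cldn5* was at 55.9, 70.6 and 57.8 CPM at 2 weeks and 17.1, 14.3 and 18.4 CPM at 1 month, a change of −1.88 ± 0.13 (SE, edgeR adjusted p = 2.22e-06). *Apln*, the peptide that sprouting endothelium secretes, was at 28.7, 44.2 and 22.2 CPM at 2 weeks and 3.09, 12.8 and 7.41 CPM at 1 month, a change of −2.16 ± 0.36 (SE, edgeR adjusted p = 7.75e-04) with a difference of −1.36 ± 0.41 (SE, edgeR adjusted p = 0.0531) that missed the threshold.

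Of 10 macrophage markers 6 rose, and the sum went from 422, 379 and 391 to 710.5, 575 and 604 CPM, against 337, 299 and 337 and 503, 574 and 465 CPM in WT hearts. The lysozyme *Lyz2* (from 59.6 ± 8.79 to 194 ± 36.8 CPM) and the receptor *Csf1r* (from 66.2 ± 7.21 to 101 ± 4.99 CPM) rose in both genotypes, while the complement genes *C1qa* and *C1qc* were uncalled. Between the genotypes no difference in this list was called by edgeR, and the median difference was −0.014. DESeq2 called 1, with the more negative change in *Lmna*-/- hearts. Further genes of macrophages and monocytes, outside this list, rose in *Lmna*-/- hearts. *Mpeg1*, a pore-forming protein of macrophages, was at 10.5, 9.85 and 12 CPM at 2 weeks and 68.0, 51.6 and 49.6 CPM at 1 month in *Lmna*-/- hearts, a change of 2.39 ± 0.15 (SE, edgeR adjusted p = 9.60e-07). WT hearts went from 8.32 ± 0.976 to 19.6 ± 3.10 CPM, and the difference was 1.2. *Ccr2*, the chemokine receptor of blood monocytes, was at 2.02, 2.72 and 2.62 CPM at 2 weeks and 12.4, 12.2 and 12.6 CPM at 1 month, all 3 hearts of 1 month being several times above those of 2 weeks. Its change was 2.32 ± 0.20 (SE, edgeR adjusted p = 1.05e-05), and the difference from the WT change was 1.79 ± 0.34 (SE, edgeR adjusted p = 0.00603). *Gpnmb*, a glycoprotein of lipid-laden macrophages, was at 1.90, 3.76 and 2.87 CPM at 2 weeks and 22.6, 11.2 and 13.3 CPM at 1 month. It rose, and its difference of 1.39 was not called. *Nlrc3*, a regulator of innate sensing, was at 2.15, 1.81 and 1.5 CPM at 2 weeks and 6.85, 5.17 and 5.68 CPM at 1 month and differed by 2.15 ± 0.42 (SE, edgeR adjusted p = 0.00673). The called differences of *Mpeg1*, *Ccr2* and *Nlrc3* were lost without the hearts with thymus or lung markers.

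Of 7 red cell markers 4 fell in each genotype, but in *Lmna*-/- hearts 2 fell without heart 3 of 1 month and 1 with robust fitting. Of 10 fibroblast markers 5 fell, or 3 without heart 3 of 1 month or without heart 2 or 3 of 2 weeks, and 1 rose, the latter being *Gsn*, which rose less than in WT hearts (difference −1.14). Of 10 lymphocyte markers 2 passed the filter in *Lmna*-/- hearts, the pan-leukocyte gene *Ptprc*, which rose from 13.6 ± 2.02 to 27.1 ± 6.48 CPM, and *Ighm*, which was uncalled. Neutrophil and lung markers did not pass it, and 2 thymus markers passed it and were uncalled. Adipocyte markers summed to 7.97, 29.5 and 41.6 CPM at 2 weeks and 86.5, 22.9 and 218 CPM at 1 month. *Scd1*, a desaturase abundant in fat, followed them with 18, 48.1 and 44.5 CPM at 2 weeks and 111, 48.8 and 396 CPM at 1 month, and the part of adipose cells in its rise was not tested.

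Interferon-stimulated genes gave 13 rises and 1 fall among 35, with a median log2 fold change of 0.45, and WT hearts showed 17 rises and 1 fall. Without heart 3 of 1 month 7 rose in *Lmna*-/- hearts, and without heart 2 of 1 month 19. *Isg15*, a ubiquitin-like modifier, was at 0.759, 0.907 and 0.872 CPM at 2 weeks and 3.64, 2.48 and 3.44 CPM at 1 month, a change of 1.92 ± 0.32 (SE, edgeR adjusted p = 7.69e-04). *Ifit3* (from 7.24 ± 1.39 to 16.7 ± 5.03 CPM) and *Stat2* (from 12.7 ± 2.79 to 23.4 ± 4.68 CPM) rose in both genotypes. No difference in this list was called by edgeR or DESeq2, with 3 of 33 at an unadjusted p under 0.05. In the acute phase and inflammation list 7 of 26 rose and 3 fell, against 16.2% and 17.8% over all genes tested. Without heart 1 of 2 weeks 1 fell. *Serpina3n*, a protease inhibitor induced by cytokines, was at 4.43, 4.53 and 4.86 CPM at 2 weeks and 53.2, 12.4 and 25.7 CPM at 1 month, a change of 2.77 ± 0.42 (SE, edgeR adjusted p = 4.05e-04). Every *Lmna*-/- heart of 1 month was above the WT hearts of that age, at 4.24, 5.62 and 4.03 CPM, but the difference between the changes, 1.07 ± 0.79 (SE, edgeR adjusted p = 0.432), was not called. Complement *C4b* (from 12.9 ± 0.719 to 51.4 ± 15.4 CPM) and *C3* (from 132 ± 3.25 to 365 ± 92.8 CPM) rose in both genotypes.

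Among clock genes 11 of 21 were higher and 5 lower in *Lmna*-/- hearts, and 10 were higher and 4 lower in WT hearts. *Nr1d1*, the repressor REV-ERB alpha, was at 21.8, 21.5 and 27.4 CPM at 2 weeks and 101, 82.0 and 103 CPM at 1 month, a change of 2.01 ± 0.13 (SE, edgeR adjusted p = 1.10e-06), and the WT change was 2.04. *Dbp* (from 13.0 ± 4.18 to 44.9 ± 6.23 CPM) and *Ciart* (from 3.39 ± 1.30 to 10.3 ± 3.12 CPM) rose, while *Arntl* (from 16.4 ± 3.45 to 7.32 ± 3.90 CPM), *Npas2* (from 13.2 ± 3.27 to 6.24 ± 1.09 CPM) and *Nfil3* (from 34.9 ± 6.78 to 10.3 ± 2.12 CPM) fell. The hour of day at which hearts were taken is not given in the sources used here, and its part in these values was not tested. That fall of *Arntl* had no counterpart call in WT hearts (−0.054), and the difference of −1.01 ± 0.55 (SE, edgeR adjusted p = 0.274) was not called.

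Targets of the oxidant sensor NRF2 gave 15 rises and 8 falls among 36 in *Lmna*-/- hearts, at a median log2 fold change of 0.22. WT hearts shared this, with 17 rises and 3 falls at a median of 0.24. *Nqo1* was at 23.0, 20.2 and 17.7 CPM at 2 weeks and 60.3, 41.5 and 47.7 CPM at 1 month, a change of 1.30 ± 0.15 (SE, edgeR adjusted p = 6.56e-05), and *Gclm*, of glutathione synthesis, rose from 21.6 ± 2.84 to 43.0 ± 7.46 CPM. *Nfe2l2*, which encodes NRF2, fell from 144 ± 18.4 to 101 ± 7.60 CPM. *Txn1* rose in *Lmna*-/- hearts alone past the threshold, with a difference of 0.62, whereas mitochondrial *Sod2* fell from 609.6 ± 43.0 to 442 ± 53.6 CPM with a difference of −0.67 and *Prdx5* fell with a difference of −0.61. Heat shock and folding genes gave 7 falls and 2 rises among 32 in *Lmna*-/- hearts and 2 falls and 11 rises in WT hearts. The shares over all genes tested were 17.8% falls and 16.2% rises in *Lmna*-/- hearts, and 18.5% and 20.4% in WT hearts. *Hspa8* was at 1692, 1616 and 1430.0 CPM at 2 weeks and 895, 809 and 826 CPM at 1 month, a change of −0.91 ± 0.11 (SE, edgeR adjusted p = 9.52e-05), with a difference of −0.55 from WT hearts. The small heat shock protein *Cryab* went from 737 ± 56.1 to 718 ± 82.3 CPM in *Lmna*-/- and from 555 ± 26.6 to 799.6 ± 94.0 CPM in WT hearts, a difference of −0.56. Autophagy and atrophy genes gave 10 rises and 3 falls among 34 in *Lmna*-/- hearts, or 5 rises without heart 2 of 2 weeks. WT hearts gave 19 rises and 1 fall. *Sqstm1* (from 256 ± 49.8 to 395 ± 79.4 CPM) and the ubiquitin ligase *Fbxo32* (from 212 ± 60.0 to 293 ± 14.0 CPM) were among the rises in both genotypes.

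Of 30 nuclear envelope genes 3 rose and 2 fell, *Lmna* included, or 4 fell without heart 2 of 1 month. The shares were below those over all genes tested, 16.2% and 17.8%. Emerin, *Emd*, which lamin A/C holds at the inner membrane, was at 44.9, 40.9 and 29.9 CPM at 2 weeks and 25.4, 26.2 and 21.4 CPM at 1 month, a change of −0.67 ± 0.15 (SE, edgeR adjusted p = 0.0049). The nesprin *Syne3* (from 8.54 ± 0.818 to 20.7 ± 3.43 CPM) and *Tor1aip1* (from 82.3 ± 6.14 to 120.4 ± 4.98 CPM) rose in both genotypes. Lamin B1, *Lmnb1*, went from 8.13 ± 1.46 to 7.83 ± 0.756 CPM in *Lmna*-/- hearts and from 16.9 ± 3.93 to 7.70 ± 1.30 CPM in WT hearts, a difference of 1.04 ± 0.29 (SE, edgeR adjusted p = 0.038), and *Tmpo*, which encodes LAP2, differed by 0.89 ± 0.16 (SE, edgeR adjusted p = 0.00398). The genotypes thus met at 1 month for *Lmnb1*.

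Several more genes stood among the largest rises and falls. Prostaglandin D2 synthase, *Ptgds*, was at 11.8, 11.3 and 9.22 CPM at 2 weeks and 131, 63.2 and 75.3 CPM at 1 month, a change of 3.07 ± 0.25 (SE, edgeR adjusted p = 6.52e-06), against 2.77 in WT hearts. The cytochrome *Cyp2e1* was at 1.01, 1.17 and 2.49 CPM at 2 weeks and 14.2, 5.99 and 17.1 CPM at 1 month and the cortisone reductase *Hsd11b1* at 0.885, 2.20 and 0.997 CPM at 2 weeks and 8.83, 3.10 and 8.61 CPM at 1 month, and both rose. The growth factor midkine, *Mdk*, was at 10.8, 17.5 and 12.6 CPM at 2 weeks and 3.31, 2.89 and 3.10 CPM at 1 month, a change of −2.12 ± 0.24 (SE, edgeR adjusted p = 5.46e-05), and the microfibril protein *Mfap4* at 85.0, 115 and 129.7 CPM at 2 weeks and 31.9, 24.6 and 22.7 CPM at 1 month, a change of −2.04 ± 0.17 (SE, edgeR adjusted p = 7.43e-06). The kinase *Nrk* and the protease *Adamts17* fell, with log2 fold changes of −2.06 and −2.22, as did the histone genes, which have near-identical copies, *Hist1h2bn* and *Hist1h1a* (−2.32 and −2.16). In WT hearts these changes were −2.46, −2.70, −3.02 and −4.27, and those of *Mdk* and *Mfap4* were −2.65 and −1.70. No difference between the genotypes was called for any of them. The nicotinic receptor subunit *Chrna2* was at 6.45, 6.74 and 9.22 CPM at 2 weeks and 1.32, 1.65 and 1.21 CPM at 1 month, a change of −2.43 ± 0.28 (SE, edgeR adjusted p = 6.59e-05) and a difference of −1.64 from WT hearts. *Fam222a* was at 10.4, 4.92 and 2.87 CPM at 2 weeks and 0.773, 1.86 and 1.21 CPM at 1 month, with a difference of −2.35. The predicted genes *Gm10800*, which rose by 3.47, and *Gm20594* and *Gm4707*, which fell (−3.54 and −2.13), are named by the rule without a known role. Large differences that the rule names also included *AW551984* (2.34), *2210407C18Rik* (−2.53) and *Gmfg* (2.29), a gene of blood cells whose WT level at 2 weeks was 4.49, 11.3 and 3.08 CPM, highest in the heart with thymus markers.

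Some classes of non-coding RNA moved together. Of 224 tested loci of the annotation class TEC, whose transcripts await experimental evidence, 76 were higher and 2 lower at 1 month, and 10 of 19 unprocessed pseudogenes were lower. The small nuclear RNA *Rn7sk* took 0.669% to 0.797% of the counts on the genes used here at 2 weeks and 0.264% to 0.296% at 1 month in *Lmna*-/- hearts. In WT hearts it went the same way, from 1.07% to 1.25% at 2 weeks to 0.196% to 0.222% at 1 month. Unprocessed pseudogenes, transcribed ones included, took at 2 weeks 0.117% to 0.121% of all counts in *Lmna*-/- and 0.131% to 0.166% in WT hearts, and at 1 month 0.0197% to 0.0258% and 0.0254% to 0.0288%. Age and count table cannot be told apart in these shifts, which both genotypes share. With protein-coding genes alone 2046 genes rose and 2175 fell.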

How the data were processed

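Whole hearts were sequenced after ribosomal RNA removal (TruSeq Stranded Total RNA, Ribo-Zero, paired reads). The authors aligned reads with STAR (2.3.1d in the submitters' processing notes, mm10) and deposited whole-number counts per Ensembl gene, as read pairs overlapping the exons of a collapsed gene model, 1 table per age. The strand setting of the counting is not given in the sources used here. Libraries had 10673094 to 27014830 counts in *Lmna*-/- hearts. The 2-week and 1-month tables were joined by gene ID, and symbols and classes came from GENCODE M21 (GRCm38), which holds 46574 of 47069 IDs (98.9%). Of all genes, 37 of the mitochondrial genome and 6660 processed pseudogenes were left out, and genes with more than 5 counts in each heart compared were tested with edgeR 4.0.16 (TMM, quasi-likelihood F-test, Benjamini-Hochberg) in R 4.3.3. Changes with age in *Lmna*-/- and WT hearts were each fitted on 6 hearts and their difference on 12. CPM values are from the 12-heart scaling. Tests were checked on simulated counts. Samples were grouped by their labels. Replicate pairs differed by more than sampling noise (chi-square per degree of freedom 5.32 to 14.3). DESeq2 1.42.0, other scalings, filters, GC, length and depth corrections, the replicate block and leaving out hearts were alternatives. Counting floors cover counting error only.

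Gene lists and members were chosen with earlier results of these data known. Named were *Lmna*, genes the study names, among called protein-coding genes of at least 1 CPM the 12 largest rises and falls whose ages do not overlap in *Lmna*-/- hearts and the 8 largest differences of each sign, and in each list the 3 largest rises and falls, called differences and defining members. Other members were picked after their values were seen, and a few genes that the rule names are not reported here. The 1-week table was not used here.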

Additional observations from a re-analysis of the deposited data

Results flagged for a closer look

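Every result here was flagged by a test of whether the change from 2 weeks to 1 month differed between *Lmna*-/- and WT hearts. Over all genes 333 changes were more positive and 556 more negative in *Lmna*-/- hearts. Of the 93 named genes with a called difference, 55 kept the call in each of the 12 fits that left out 1 heart, 25 kept it without the 3 hearts with thymus or lung markers, and 7 kept it without the 4 hearts with *Xist* reads. Those 7 were *Atf3*, *Gem*, *Irs2*, *Nr4a1*, *Nr4a2*, *Nr4a3* and *Ogdhl*. The values below are *Lmna*-/- log2 changes minus WT log2 changes.

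For 22 genes the call was kept in all 12 fits and also without the hearts with thymus or lung markers. The *Lmna*-/- change was less negative or more positive for *Myh7* (3.49), *Mybl1* (2.76), *Gas2l3* (2.40), *Arhgap11a* (2.20), *Bub1b* (2.17), *Atpif1* (1.07), *Plagl1* (0.92) and *Atr* (0.68). It was more negative or less positive for *Nr4a1* (−2.46), *Irs2* (−2.39), *Atf3* (−2.38), *Ogdhl* (−2.30), *Gem* (−2.28), *Hcn4* (−1.41), *P2ry1* (−1.22), *Ech1* (−1.18) and *Gsn* (−1.14). In the same direction lay *Errfi1* (−1.14), *Hrc* (−1.10), *Cpt2* (−0.98), *Cox7a1* (−0.91) and *Tsc22d3* (−0.85).

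Another 33 genes kept the call in all 12 fits but lost it without the hearts with thymus or lung markers. Their change in *Lmna*-/- hearts was less negative or more positive for *AW551984* (2.34), *Nlrc3* (2.15), *Rrm2* (1.81), *Psat1* (1.81), *Ccr2* (1.79), *Mpeg1* (1.2), *Mcm6* (1.18), *H19* (1.13) and *Mcm4* (1.06). A further group comprised *Tmpo* (0.89) and *Slc38a4* (0.80). It was more negative or less positive for *2210407C18Rik* (−2.53), *Adra1a* (−1.71), *Id1* (−1.17), *Kcna5* (−1.15), *Cebpd* (−1.09), *Rxrg* (−1.06), *Ppara* (−1.0), *Mccc2* (−0.94) and *Ivd* (−0.94). Smaller differences of this sign were those of *Atp5g1* (−0.81), *Perm1* (−0.80), *Tnni3* (−0.78), *Pygm* (−0.78), *Ndufs7* (−0.76), *Cox6a2* (−0.74), *Acadvl* (−0.74), *Crat* (−0.73) and *Ndufa13* (−0.71). This group ended with *Serpinh1* (−0.69), *Slc2a4* (−0.67), *Prdx5* (−0.61) and *Ndufs8* (−0.61).

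The remaining 38 genes lost the call in 1 to 9 of the 12 fits. Among these the *Lmna*-/- change was less negative or more positive for *Gmfg* (2.29), *Aurka* (2.15), *Tpx2* (1.90), *Kif11* (1.69), *Angptl4* (1.63), *Mthfd1l* (1.55), *Nppb* (1.46), *Ankrd1* (1.38) and *Lmnb1* (1.04). With them stood *Postn* (0.93), *Kcne1* (0.92), *Mest* (0.90), *Fhl1* (0.80), *Igf2* (0.68), *Txn1* (0.62) and *Synpo2l* (0.57). The opposite sign, more negative or less positive, was found for *Fam222a* (−2.35), *Nr4a2* (−2.22), *Nr4a3* (−2.16), *Chrna2* (−1.64), *Thbs1* (−0.96), *Sgk1* (−0.83), *Kcnd3* (−0.80), *Kcnip2* (−0.74) and *Esrra* (−0.67). Next in size came *Sod2* (−0.67), *Hadhb* (−0.66), *Uqcrfs1* (−0.65), *Hadha* (−0.62), *Acsl1* (−0.59), *Ndufv1* (−0.59), *Pfkm* (−0.58) and *Atp5d* (−0.58). Below them were *Cmya5* (−0.57), *Cryab* (−0.56), *Hspa8* (−0.55), *Gys1* (−0.54) and *Acadm* (−0.52). The part of the hearts that stand apart in these differences was not tested beyond leaving them out.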

How the results depend on the processing

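The calls in *Lmna*-/- hearts, 2090 higher and 2289 lower, stayed within 1.5 times under every alternative except glmTreat's test against a 1.5-fold change, which asks for larger changes by construction and left 244 and 326 (356 and 392 in WT hearts). Leaving out 1 heart gave 1545 to 1810 rises and 1845 to 2112 falls in *Lmna*-/- hearts, and 2011 to 2419 rises and 1722 to 2314 falls in WT hearts. The difference between the genotypes moved more. It gave 127 to 317 more positive and 236 to 629 more negative calls with 1 heart left out, the lowest without WT heart 2 of 2 weeks. It moved by over 1.5 times as well without WT heart 3 of 1 month (160 and 309), *Lmna*-/- heart 1 of 2 weeks (168 and 330), WT heart 1 of 1 month (200 and 361) and WT heart 3 of 2 weeks (204 and 347). Without a filter on counts 536 and 940 were called among more genes, at an adjusted p under 0.1 628 and 943, and against a 1.5-fold change 12 and 10. Settings chosen after seeing the data left out hearts together. Without those with thymus or lung markers 1623 genes rose in WT hearts and 59 and 95 differences were called, and without those with *Xist* reads 1648, 3 and 17. These fits hold fewer hearts, and the lone heart that the last one leaves in a group is assumed to vary like the other groups. DESeq2 called 1677 rises and 1921 falls in *Lmna*-/- hearts. The replicate block gave 1922 and 2114 there, 2604 and 2331 in WT hearts and 390 and 594 for the difference, but replicate numbers do not pair hearts of different ages, and hearts with the same number correlated at −0.066, 0.036 and −0.023 in *Lmna*-/- hearts and 0.137, 0.061 and 0.019 in WT hearts, and not every heart correlated best with its own number. Of 171 gene values given with an error or a log2 change, 0 changed sign past the threshold under any alternative. Many lost their call, however: 23 with robust fitting, 22 without *Lmna*-/- heart 1 of 2 weeks and 35 without WT heart 2 of 2 weeks. Against a 1.5-fold change 100 did. Among the values that lost their call when some hearts were left out were the *Lmna*-/- changes of *Phlda1*, *Pnpla2* and *Ppargc1a*. Median changes near 0 (glycolysis, branched-chain amino acids, regulators of oxidative metabolism, insulin, adrenergic and TGF-beta signaling, DNA repair) changed sign under some settings. Depth limits genes near the floor, such as *Isg15* and *Hsd11b1* at 2 weeks.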
